A study of Rattus norvegicus with 24 samples.

Results

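A set of 4 genes, 3 typical of adipose tissue (Adipoq, Fabp4 and Cfd) and 1 of the thyroid (Tg), were followed through every library of a carotid body (CB) series. They were chosen by matching the Ensembl identifier of each count row to these 4 symbols in the study's gene table, which gave 4 of the 32623 genes in the counts. As read here, that table pairs symbols only with genes that were higher in the spontaneously hypertensive (SH) rat. The 4 genes were therefore picked with their strain difference known, and that difference is described without a test. The label given to the group is neighbouring tissue, and where the transcripts came from was not tested.

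The CB is a small chemosensory organ at the fork of the common carotid artery whose glomus cells sense blood oxygen. It was taken from 6 WKY/NHsd rats, a normotensive strain, and from 6 SHR/NHsd rats, an inbred strain with raised blood pressure. All rats were males of 12 to 14 weeks, perfused with cold saline before the CBs were cut out under a microscope and frozen. The left and right CB of each rat gave a polyA RNA library each, 6 libraries per strain and side and 24 in all. Total counts ran from 9198341 to 13655419 per library. The study's own gene table used 23 of the libraries, without the right CB of SH rat 34, and the comparisons below follow it. That library is described first because it stood apart.

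Fat fills the spaces around the carotid fork, and the thyroid gland lies close by along the trachea. Adipoq encodes adiponectin, a hormone secreted by mature adipocytes. Fabp4 encodes the fatty acid carrier of adipocytes, which some capillary endothelial cells and macrophages also make. Cfd encodes adipsin, the complement factor D protease, which adipocytes secrete and macrophages can make too. Tg encodes thyroglobulin, the large protein on which thyroid follicle cells build thyroid hormone. In whole tissue, a difference in the number of such cells cannot be told apart from a difference in RNA per cell.

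In the right CB of SH rat 34, Tg (ENSRNOG00000006104) had 63413 of 10450867 counts. This was 0.607% of the library (95% Wilson interval 0.602 to 0.612, which covers counting error only), and it made Tg the 11th most counted gene there. In CPM, which are counts scaled to library size (TMM-normalized), Tg stood at 7849. The next highest library was the right CB of SH rat 30 at 215, and the median of the other 23 libraries was 1.35 CPM. The left CB of the same rat had 22 Tg counts, or 2.44 CPM, within the range of the other libraries. The surplus was thus in 1 of the 2 CBs of this rat.

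The adipose genes did not move together in this library. Fabp4 (ENSRNOG00000010805) had 3112 counts and 385 CPM, 6.73-fold above the next highest library, the right CB of SH rat 37 at 57.3 CPM, and 62.0-fold above the left CB of the same rat. Adipoq (ENSRNOG00000001821) had 51 counts and 6.31 CPM, second to the left CB of SH rat 37 at 6.88 CPM. Cfd (ENSRNOG00000033564) had 9 counts and 1.11 CPM and ranked 17 of 24 libraries, with 9 counts in the left CB of the rat too. Of the 4 genes, Tg and Fabp4 lay above all 23 other libraries, Adipoq lay within their range near its top, and Cfd lay below their median of 1.63 CPM.

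Genes of glomus cells were low in the same library. All 5 genes of the glomus list lay below the other 23 libraries, with a summed level of 77.4 CPM against 1114 to 2284 CPM. Other lists left that range too: 4 of 7 lymphocyte genes lay below (0 above) and 3 of 7 skeletal muscle genes (1 above). Of 7 fibroblast genes, 2 lay above and 2 below, and of 4 smooth muscle and 6 macrophage genes 1 each lay below. The share of all genes outside the range was not computed, for these counts or those of the adipocyte and thyroid lists. Chromogranin B (Chgb), a protein of secretory granules, had 3.84 CPM where the other libraries had 425 to 941. Dopamine beta-hydroxylase (Dbh), an enzyme of noradrenaline synthesis, had 2.10 CPM against 10.3 to 49.0, and the somatostatin receptor Sstr1 had 0.371 CPM, which is 3 counts, against 146 to 282. Chromogranin A (Chga) had 54.1 CPM against 461 to 981, and the growth factor receptor Ret had 17.0 against 24.8 to 82.5. ND2 and ND1, mitochondrial transcripts for subunits of respiratory complex I, are on no list. They were named because they correlated highly with Tg over all 24 libraries, a likeness that depends on their level in this library. Both lay above all 23 other libraries. ND2 had 24392 CPM against 6276 to 10538, and ND1 18512 against 5324 to 9325. Hk2, Clu and Prelid3a, named by the same correlation, lay above all 23 too. Hk2 had 26.4 CPM against 4.44 to 10.5, Clu 420 against 92.9 to 223 and Prelid3a 34.9 against 8.94 to 18.1. The part of these shifts in the Tg and Fabp4 levels was not tested.

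The other genes of the adipocyte list went in both directions, and those of the thyroid list lay above or within their ranges. These lists, like the others used here, hold symbols from the same table and so only genes higher in SHR. Of the 9 adipocyte genes besides the 3 members, 3 lay above all 23 other libraries in the right CB of SH rat 34. They were the fatty acid transporter Cd36 at 83.7 CPM (8.12 to 40.4 elsewhere), the carboxylesterase Ces1d at 26.2 (1.97 to 12.1) and the transcription factor Klf15 at 147 (10.6 to 47.2). The amine oxidase Aoc3, at 82.6 CPM, lay below its range of 115 to 213, and the amino acid transporter Slc7a10 had 0 counts, where 3 counts would be 0.371 CPM. Lipoprotein lipase (Lpl), Trarg1, Medag and Arxes2 lay within their ranges, Lpl at 41.6 CPM in a range of 37 to 71.0. Of the 3 thyroid list genes besides Tg, the epithelial adhesion protein Epcam lay above all 23, at 30.1 CPM against 1.85 to 11.7. Duoxa1, a maturation factor for the thyroid's peroxide-making oxidase, had 3.71 CPM and the endocytic receptor Lrp2 10.9, both within their ranges. Summed, these 9 adipocyte genes stood at 413 CPM in this library against 198 to 397 in the other 23. The 3 thyroid list genes summed to 44.7 CPM, of which Epcam gave 30.1, against 10.2 to 26.9.

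**Figure D1:**
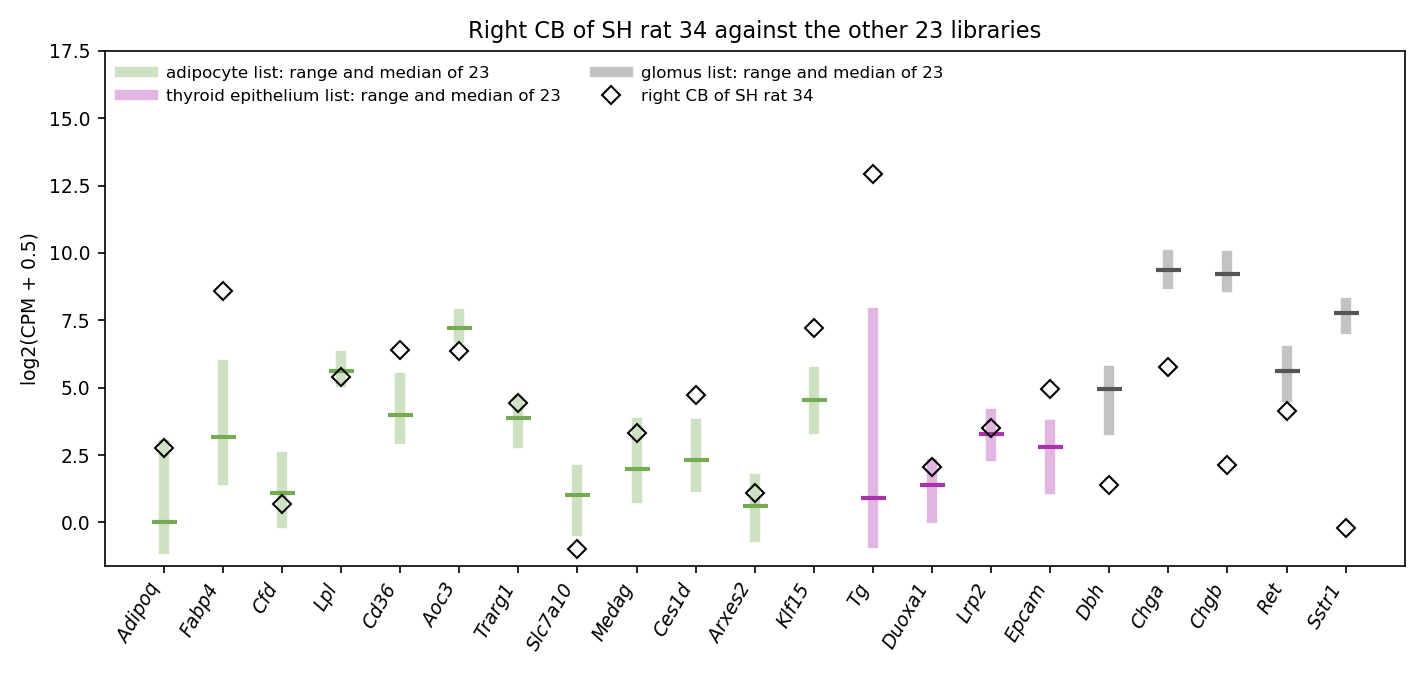
Level of each gene of the adipocyte, thyroid epithelium and glomus lists as log2(CPM + 0.5). Bars span the other 23 libraries, dashes mark their median and diamonds mark the right CB of SH rat 34. Tg and Fabp4 sit above their bars, all 5 glomus genes sit below theirs, and Cfd sits inside.

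Genes that stood far above all other libraries in the right CB of SH rat 34 were also listed. In all, 15 genes had 100 or more counts in the right CB of SH rat 34 and at least 10 times the level of the next highest library, and Tg had the most counts of them and was the only one with a symbol. For 3 of the 15, Tg among them, the next highest library was the right CB of SH rat 30. That library was the highest of the 23 for 2.63% of all 14258 genes tested. The 15 were drawn from all 32623 genes in the counts, some too low elsewhere to be tested, so this share is of a different set. Besides Tg, the genes of the 15 with that library next highest were ENSRNOG00000004646 and ENSRNOG00000026203, picked after their values were seen. The former had 1357 counts in the right CB of SH rat 34, 33 in the right CB of SH rat 30 and at most 11 in any other library. The latter had 218 counts, 11 counts and at most 7. Both had 0 counts in the left CB of SH rat 34. From the right CB of SH rat 34 to that of SH rat 30 the level dropped 36.5-fold for Tg, 51.5-fold for ENSRNOG00000004646 and 24.8-fold for ENSRNOG00000026203. Each drop is at least 10-fold by the way the genes were picked. In the right CB of SH rat 30, Tg had 2179 counts, so the few counts of the others there show little of a shared pattern.

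The right CB of SH rat 30 stood apart by Tg alone of the 4 genes. It had 2179 Tg counts, 215 CPM, while its left CB had 42 counts and 4.34 CPM, a 49.6-fold difference between the sides. Fabp4 in this library was 8.59 CPM, Adipoq 0.692 and Cfd 1.98, each near the middle of the 23 libraries. Its glomus genes summed to 1739 CPM, within the range of the others. High Tg was therefore seen once with glomus genes far below their range and once with glomus genes inside it.

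**Figure D2:**
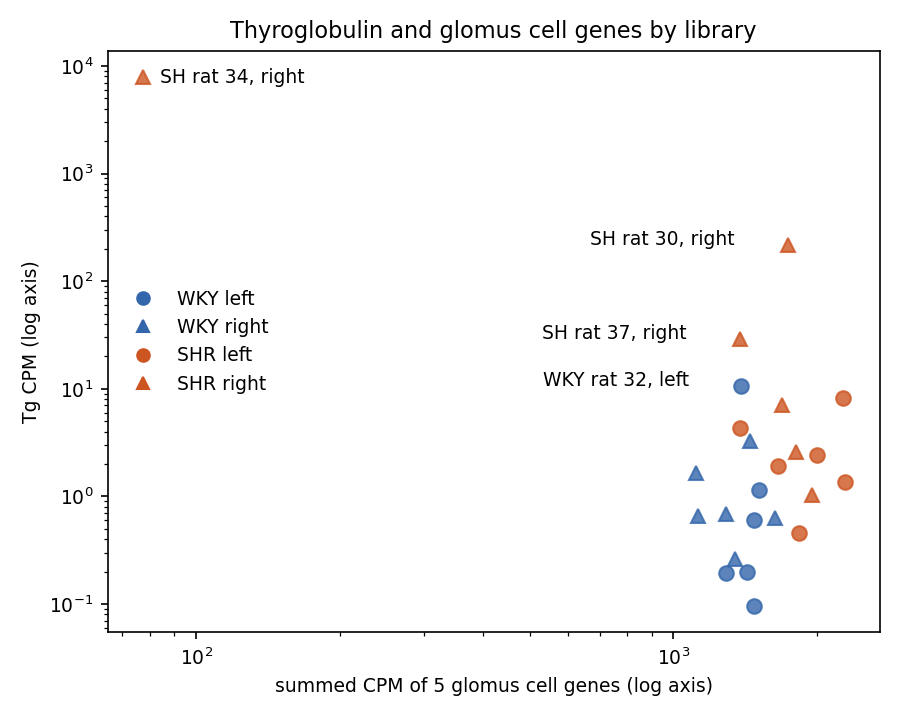
Tg level against the summed level of 5 glomus cell genes (Dbh, Chga, Chgb, Ret and Sstr1), both in CPM on log axes, with 1 point per library, circles for left and triangles for right CBs. The right CB of SH rat 34 lies alone at 7849 CPM of Tg and 77.4 CPM of glomus genes, and the right CB of SH rat 30 lies at 215 and 1739.

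Over all 24 libraries, Tg was the most uneven of the 4 genes. In left CBs of WKY it ran from 0.0959 to 10.7 CPM with a median of 0.405, and in right CBs of WKY from 0.265 to 3.28 with a median of 0.672. In left CBs of SH rats it ran from 0.455 to 8.21 CPM with a median of 2.17. In right CBs of SH rats it ran from 1.04 to 7849 CPM with a median of 18.0. All 4 groups overlapped, and 4 of the 24 libraries had 3 or fewer Tg counts. The right CB of SH rat 30 held 73.3% of the summed Tg level of the 23 libraries, followed by the right CB of SH rat 37 with 9.84% and the left CB of WKY rat 32 with 3.63%. With the right CB of SH rat 34 added, that library held 96.4% of the total over 24.

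Fabp4 was found in every library, with 24 counts at the least. It ran from 3.02 to 10.97 CPM in left CBs of WKY (median 5.20) and from 6.71 to 26.3 in right CBs of WKY (median 10.1). In left CBs of SH rats it ran from 2.50 to 21.0 CPM (median 8.59). In right CBs of SH rats it ran from 8.59 to 385 CPM (median 26.0), and without SH rat 34 its highest value there was 57.3, in SH rat 37. The right CBs of SH rats overlapped the left ones, and both overlapped WKY.

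Adipoq was near the limit of detection. It had 0 counts in 4 of the 24 libraries and 3 or fewer in 9. In left CBs of WKY it ran from 0 to 0.508 CPM (median 0.182) and in right CBs of WKY from 0 to 2.57 (median 1.12). In left CBs of SH rats it ran from 0 to 6.88 CPM (median 1.15) and in right CBs of SH rats from 0.311 to 6.31 (median 1.84). The highest value, 87 counts in the left CB of SH rat 37, held 23.7% of the summed level of the 23 libraries. Left CBs of WKY were the only group in which no library passed 1 CPM.

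Cfd was the most even of the 4 genes, and no library held more than 10.4% of its summed level over 23. It ran from 0.479 to 2.80 CPM in left CBs of WKY (median 1.30) and from 0.795 to 2.26 in right CBs of WKY (median 1.12). In left CBs of SH rats it ran from 0.998 to 4.90 CPM (median 1.96) and in right CBs of SH rats from 1.11 to 4.89 (median 2.79). Both CBs of SH rat 37 lay at the top, with 62 counts in the left and 46 in the right. Counts of Cfd lay between 5 and 62 in every library, so its levels carry a wide counting error.

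**Figure D3:**
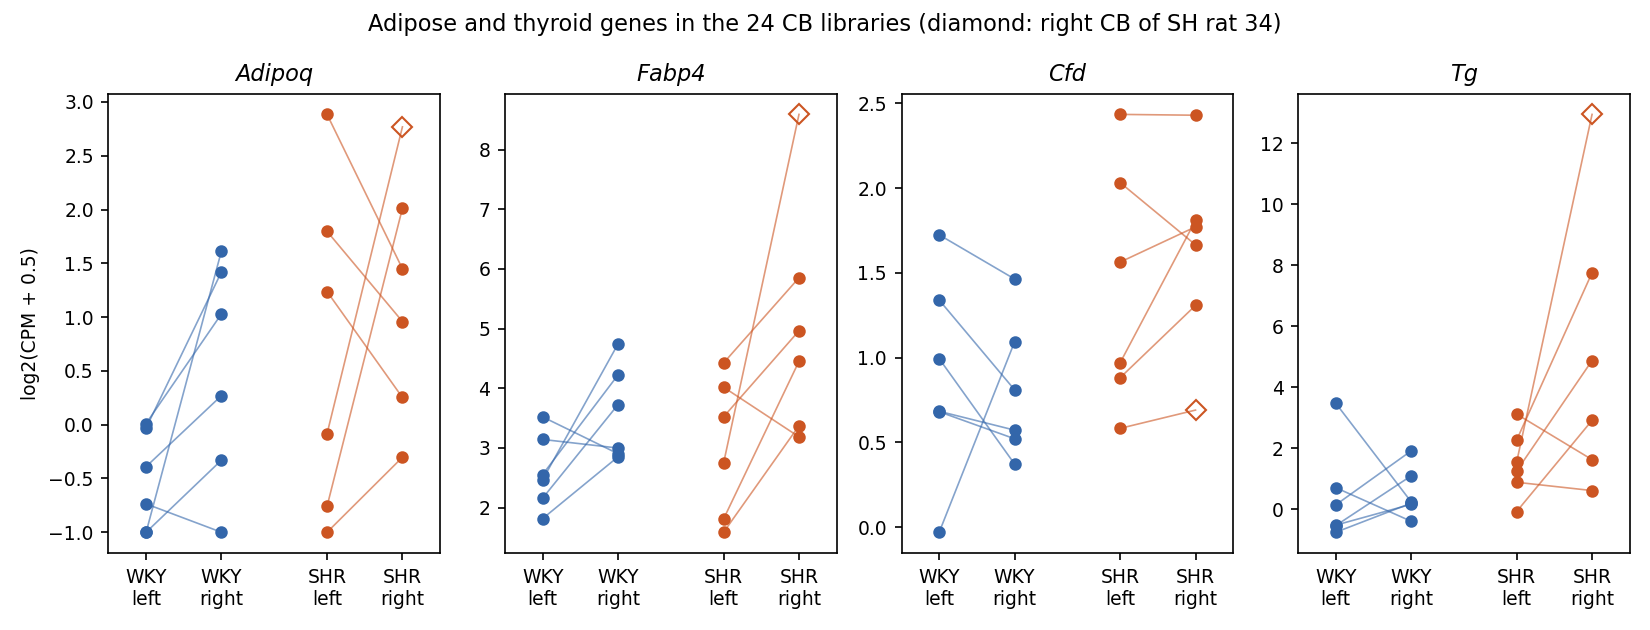
Level of Adipoq, Fabp4, Cfd and Tg as log2(CPM + 0.5) in the 24 libraries, with a panel per gene, each with its own axis, and a line joining the CBs of each rat. The diamond is the right CB of SH rat 34, which tops the Fabp4 panel at 385 CPM and the Tg panel at 7849 CPM and lies at 1.11 CPM for Cfd.

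The promoters of Adipoq and Cfd are shown because they were the only members with a promoter entry in the reference used. They are the 250 bases before the gene start in RefSeq (GRCr8), both on the minus strand and printed 5′ to 3′ along the gene, at chr11:91240170-91240419 for Adipoq and chr7:10465497-10465746 for Cfd. Capitals mark CCAAT, the core of the site bound by CCAAT-binding factors, or its reverse complement ATTGG.
Adipoq: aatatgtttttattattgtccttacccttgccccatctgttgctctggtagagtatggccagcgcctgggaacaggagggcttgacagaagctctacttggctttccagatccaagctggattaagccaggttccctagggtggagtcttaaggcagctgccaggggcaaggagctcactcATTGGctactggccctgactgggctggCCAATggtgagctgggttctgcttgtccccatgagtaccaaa
Cfd: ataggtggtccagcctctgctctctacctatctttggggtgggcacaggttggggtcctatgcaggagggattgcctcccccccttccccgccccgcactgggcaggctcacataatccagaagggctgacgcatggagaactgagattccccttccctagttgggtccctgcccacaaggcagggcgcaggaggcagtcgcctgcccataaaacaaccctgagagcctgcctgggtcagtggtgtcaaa
Adipoq held CCAAT 42 bases and ATTGG 69 bases before the start. Neither CCAAT nor ATTGG was in the Cfd window, and 34% of 33469 rat promoters of this length held one of them. TATAAA and AGGTCA, searched on both strands, were in neither window, against 12.9% and 14.1% of promoters. A match is a match of letters and not a measured site.

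The side of the CB was not a criterion in choosing the 4 genes, and it was tested. The strain difference that picked them can rest mostly on CBs of the same side, as for Tg (0.54 in left and 5.39 in right CBs). The side and side by strain results are therefore not wholly independent of that choice. The fit was edgeR's quasi-likelihood F-test of right against left with strain as a covariate, over 14258 genes in 23 libraries with Benjamini-Hochberg adjustment. It called 0 of 14258 genes (0%) and 0 of the 4 members, with 702 genes at an unadjusted p under 0.05. DESeq2 called 0 genes as well, with 718 at an unadjusted p under 0.05. Fabp4 came nearest of the 4. Its right minus left difference was 1.22 on the log2 scale (SE 0.391), with an unadjusted p of 0.00533 and an adjusted p of 0.955. Within rats, as log2(CPM + 0.5), it was 1.11 ± 1.15 (SD, n = 11 rats), higher on the right in 8 of 11 (exact permutation by sign flips, two-sided, p = 0.0146, unadjusted, 1 of 4 genes so tested). With SH rat 34 it was 1.51 ± 1.75 (SD, n = 12 rats), higher on the right in 9 of 12 (p = 0.00732 by the same exact permutation), and the adjusted p of the fit was 0.795. The side difference of Fabp4 thus did not pass the adjustment with or without this library.

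Tg differed by 2.30 between right and left on the log2 scale (SE 1.07, unadjusted p = 0.0438, adjusted p = 0.955 in edgeR). Without SH rat 30 the difference was 0.48, and without WKY rat 32 it was 3.63. With all 24 libraries it was 5.39 (adjusted p = 0.795 in edgeR). Within rats it was 1.002 ± 2.49 (SD, n = 11 rats), higher on the right in 7 of 11 (exact sign-flip permutation test, p = 0.210). By contrast, WKY rat 32 had 106 Tg counts in its left CB and 7 in its right CB, the widest difference in the other direction. The side with more Tg was thus not the same from rat to rat.

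Adipoq differed by 0.68 (SE 0.706, adjusted p = 0.958 in edgeR), and within rats by 0.58 ± 1.38 (SD, n = 11 rats), higher on the right in 7 of 11 (exact sign-flip permutation test, p = 0.200). Without SH rat 37 the Adipoq difference was 1.33, and without WKY rat 34 it was 0.36. In WKY it was higher on the right in 5 of 6 rats (exact sign-flip permutation test, p = 0.0625, where 0.03125 is the smallest that 6 rats allow) and in SH rats in 2 of 5. The difference between strains in the side difference of Adipoq was -2.70 (adjusted p = 0.999 in edgeR). For Tg it was 4.86 (unadjusted p = 0.0162, adjusted p = 0.999), for Fabp4 0.27 and for Cfd 0.50, and 0 of 14258 genes passed this test (438 at an unadjusted p under 0.05). With the rat as a block, which pairs the CBs, the Tg term was 2.998 (unadjusted p = 0.173 in edgeR). With all 24 libraries it was 9.60 for Tg and 2.01 for Fabp4 (adjusted p = 0.990 for both in edgeR). Cfd differed by 0.06 between the sides (SE 0.280, adjusted p = 0.992 in edgeR) and by 0.05 ± 0.554 within rats (SD, n = 11 rats), higher on the right in 4 of 11 (exact sign-flip permutation test, p = 0.773).

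**Figure D4:**
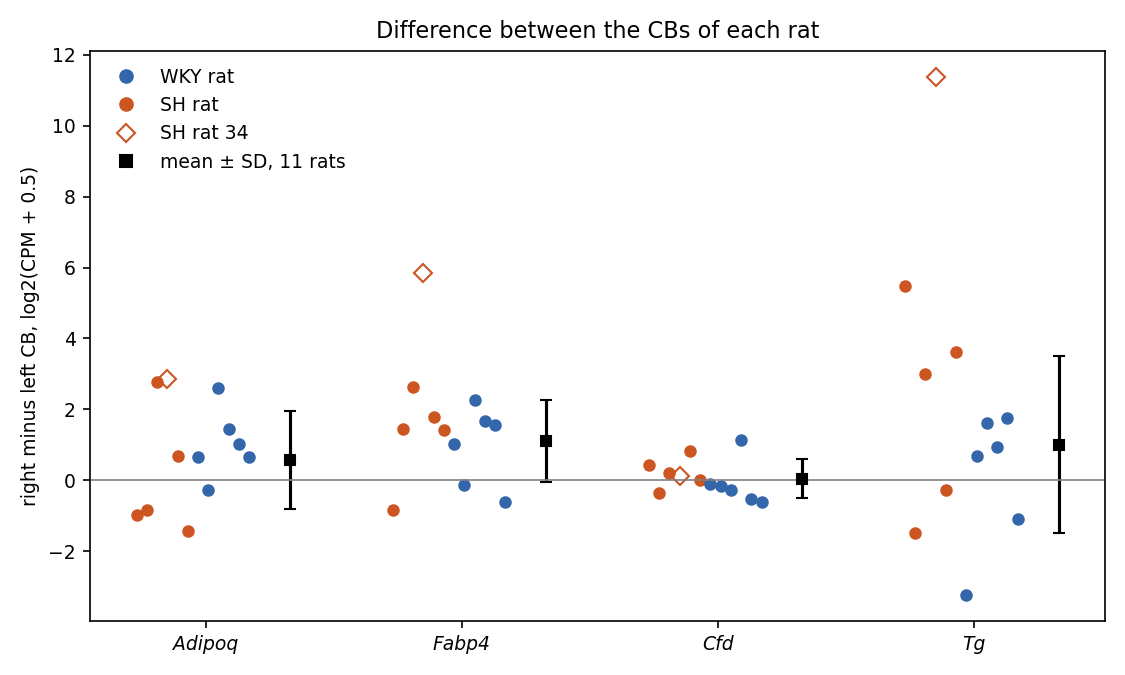
Right minus left difference within each rat in log2(CPM + 0.5) for the 4 genes, with 1 point per rat, and the mean ± SD over 11 rats as a square. The open diamond is SH rat 34, left out of the mean. Fabp4 was higher on the right in 8 of 11 rats, and Tg spread widest.

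Of the other 9 adipocyte genes, 4 had a positive side difference, with a median of -0.02 on the log2 scale (-0.24 to 0.26) and 0 passing the test. The median over all 14258 genes was 0.00. The 3 thyroid list genes besides Tg lay between -0.03 and 0.06. No gene of the other 6 lists passed the side test either.

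Between strains, all 4 genes were higher in SHR, which the way they were picked fixes. Averaged over the sides of a rat in the 23 libraries, Adipoq was 0.720 ± 0.568 CPM in WKY and 1.74 ± 1.59 in SH rats (SD, n = 6 rats each). Fabp4 was 9.58 ± 3.70 and 16.1 ± 12.5 CPM. Cfd was 1.41 ± 0.599 and 2.60 ± 1.35 CPM. Tg was 1.67 ± 2.04 and 23 ± 42.8 CPM, with medians of 0.810 and 4.58. Rats of the strains overlapped for every gene, with 3 of 6 SH rats above all WKY rats for Adipoq and Cfd and 2 of 6 for Fabp4 and Tg. SH rat 37 was highest for all 3 adipose genes, and SH rat 30 was highest for Tg.

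The fitted strain difference on the log2 scale was 1.59 (SE 0.710) for Adipoq, 0.85 (SE 0.390) for Fabp4, 0.97 (SE 0.278) for Cfd and 3.17 (SE 1.08) for Tg. Of the 14258 genes fitted, 20.1% were called between strains in either direction and 10.2% as higher in SHR, and no call is given for the 4 members, which were picked by this difference. Without SH rat 37 the differences were 1.08 for Adipoq, 0.38 for Fabp4 and 0.69 for Cfd. Tg was 1.71 without SH rat 30 and 4.65 without WKY rat 32. With all 24 libraries Tg was 6.11 and Fabp4 1.79, and 10.4% of all genes were called in either direction, 5.34% as higher in SHR. The sides gave different sizes, and the side by strain term above is the test of that. Tg differed by 0.54 in left CBs and by 5.39 in right CBs, while Adipoq differed by 3.15 in left CBs and by 0.45 in right CBs. Fabp4 was 0.70 on the left and 0.97 on the right, and Cfd 0.73 and 1.23.

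**Figure D5:**
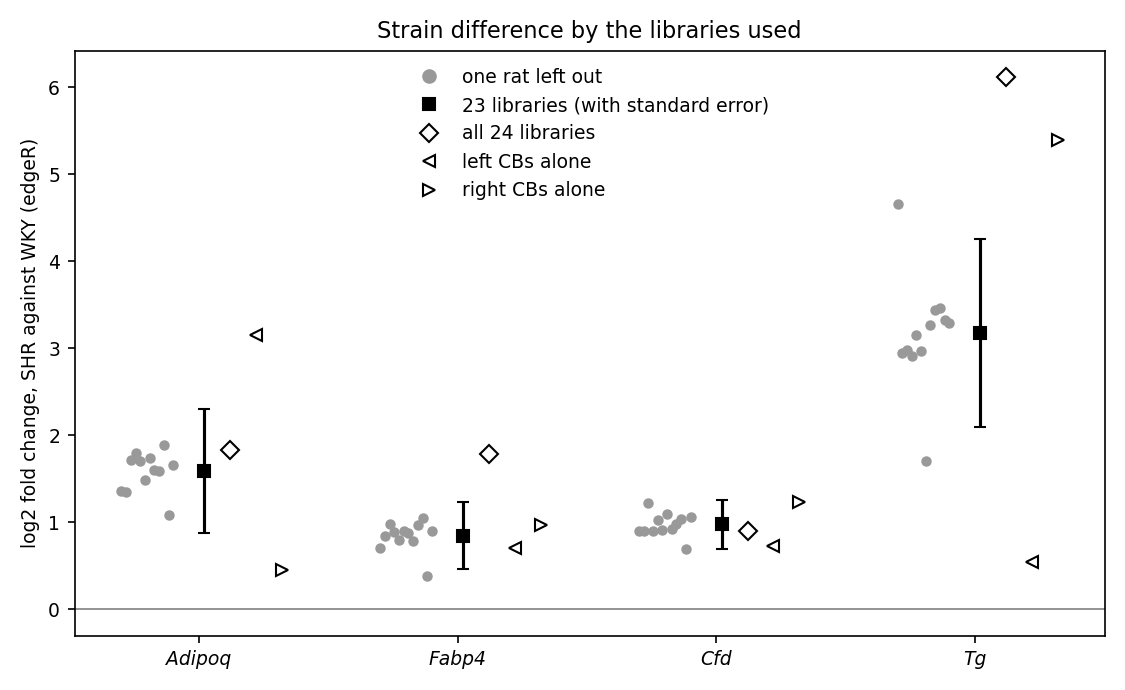
Strain difference (SHR against WKY) of the 4 genes on the log2 scale as fitted by edgeR. Squares with standard errors are the 23 libraries, grey points leave out a rat each, diamonds are all 24 libraries and triangles are the left or right CBs alone. Tg runs from 0.54 to 6.11 and Cfd from 0.69 to 1.23.

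Libraries high in 1 gene were not always high in the others. Over the 23 libraries, Adipoq and Fabp4 went together most closely, with a Pearson r of 0.781 and a Spearman rho of 0.797 in log2(CPM + 0.5), and r was 0.890 over 12 rat means. Cfd had r = 0.541 with Adipoq and 0.519 with Fabp4. Tg had r = 0.329 with Adipoq, 0.333 with Fabp4 and 0.358 with Cfd. With all 24 libraries, r between Fabp4 and Cfd was 0.248 and r between Fabp4 and Tg was 0.695. These values describe 23 or 24 libraries that come in pairs from rats of 2 strains, and no p is given.

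Among the 1273 genes with a symbol, those most like each member were named by Pearson r over the 23 libraries, up to 5 for each. Adipoq was followed after Fabp4 by Ankrd1 (0.698), a muscle ankyrin repeat protein, Rhof (0.655), a small GTPase, Tpm2 (0.637), a tropomyosin, and Dpt (0.636), an extracellular matrix protein. For Fabp4, all of the named genes after Adipoq were contractile genes on the smooth muscle list, namely Cnn1 (0.717), Acta2 (0.705), Tagln (0.701) and Tpm2 (0.660). SH rat 37 had the highest summed smooth muscle genes in its right CB, at 1318 CPM, a library that was also highest of the 23 for Fabp4, and the right CB of SH rat 34 stood at 413, within a range of 317 to 1318.

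Cfd had among its most alike genes Sfrp2 (0.824), a secreted Wnt modulator, Pla2g2d (0.804), a secreted phospholipase, St6galnac3 (0.754), a sialyltransferase, and Styxl1 (0.730). Its median r was 0.601 with the 6 macrophage genes, 0.567 with the 7 lymphocyte genes and 0.545 with the other 9 adipocyte genes. For Adipoq it was 0.581 with the 7 fibroblast genes and 0.551 with the 4 smooth muscle genes, against 0.526 with the other 9 adipocyte genes. For Fabp4 it was 0.703 with the smooth muscle genes against 0.452. For Tg it was 0.431 with the smooth muscle genes, against 0.280 with the other 3 thyroid list genes. Tg was most like St6galnac3 (0.731), Npnt (0.698), an adhesion protein of basement membranes, Sting1 (0.696), a sensor of cytosolic nucleotides, Inhbb (0.665), a subunit of activin and inhibin, and LOC100910944 (0.654). None of the other 3 thyroid list genes was among them, and their r with Tg ran from 0.0406 to 0.364. All of these are genes higher in SHR, as are the members, and so share the strain difference.

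The genes most alike were others with SH rat 34's right CB included. With all 24 libraries, 20 of 14257 genes had r above 0.8 with Fabp4, against 2 over 23, and only 2 of the 20 had a symbol. Among genes with a symbol, Lcn2 (0.808), Tbx18 (0.804) and Ust (0.7996) stood before Adipoq (0.791). The highest r with Fabp4 over all genes was 0.913. Of the genes with a symbol, Tg was then most like Hk2 (0.792), ND2 (0.777), Clu (0.776), ND1 (0.769) and Prelid3a (0.769). None of these was among its 5 over 23 libraries, and a gene without a symbol had a higher r with Tg (0.807). Sfrp2 remained first for Cfd (0.823). Fabp4 remained first for Adipoq among genes with a symbol, below a gene without a symbol (0.804).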

How the data were processed

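Polyadenylated RNA of 24 CBs was sequenced by the authors after stranded library preparation. Per the labels' processing notes the tools were FastQC, STAR, featureCounts and DESeq2. Versions, genome build, annotation, strand and multi-mapping settings are not given in the sources used here. The deposited values are raw read counts for 32623 Ensembl genes, and each of the 24 columns matched 1 sample's labels.

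Counts were analysed with edgeR 4.0.16 in R 4.3.3 (TMM scaling, robust quasi-likelihood F-test), over genes with a mean normalized count above 10, with Benjamini-Hochberg adjustment at 0.05 and strain or side as the covariate. DESeq2 1.42.0 was an alternative. CPM were TMM-normalized over 24 libraries, and 0.5 was added before logs. Differences within rats were tested by exact two-sided sign flips. A count of 3 or fewer was taken as the floor. All pairs of libraries differed by more than sampling noise (lowest chi-square per degree of freedom 5.17).

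The CBs of a rat share its number in the labels and so are paired by animal. Over 11 rats, their deviations from group means correlated with a median of 0.115 (-0.0311 to 0.241). For left and right CBs of different rats the median was -0.00558 (-0.259 to 0.392), a range that contains the first. P-values over libraries treat the CBs of a rat as separate samples unless the rat is a block.

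Genes were named by rule: the 4 members, the 5 genes with a symbol that had the highest r with each, and the genes of the adipocyte, thyroid and, for the right CB of SH rat 34, glomus lists. A gene that this rule would name is not reported here. Symbols came from the part of the study's table that was read, 1273 identifiers. The members, lists and tests were chosen with earlier results of these data known.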

Additional observations from a re-analysis of the deposited data

Results flagged for a closer look

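The right CB of SH rat 34, a library that the comparisons leave out, held Tg at 7849 CPM, Fabp4 at 385 CPM and Adipoq at 6.31 CPM, each above all 12 WKY libraries. In CPM, its gap to the other right CBs of SH rats also passed Dixon's limit for 6 samples for Tg, at 0.973 of the group's range, and for Fabp4, at 0.871. The left CB of WKY rat 32, with Tg at 10.7 CPM, passed the same limit among the left CBs of WKY, at 0.901. On the log2(CPM + 0.5) scale, a check chosen after seeing the data, the gap was 0.421 for Tg and 0.507 for Fabp4 in the right CB of SH rat 34, under the limit, and 0.654 for Tg in the left CB of WKY rat 32. Of 16 combinations of gene and group, 3 passed in CPM and 1 on the log2 scale. Chance would pass about 1 in 20 groups if values were normal.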

How the results depend on the processing

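Side differences are right minus left and strain differences SHR minus WKY, in log2 fold change. No setting gave a called gene between sides: the count was 0 in the 12 fits without 1 rat each, with all 24 libraries, with DESeq2's size factors or test, without the filter, in each strain alone and with the rat as a block. With the rat as a replicate block, the CBs of a rat being paired (22 libraries, the lone left CB of SH rat 34 dropping out), Fabp4 was 1.16 (adjusted p = 0.698 in edgeR), Tg 1.53, Adipoq 0.86 and Cfd 0.05, and the pairing changed no call. Over all settings, the lowest adjusted p among the 4 members lay between 0.698 and 0.9998. The side by strain terms, refitted with 24 libraries and with the rat block after seeing the data, called 0 of the 4 members. Adipoq was -0.35 in SH rats alone and 2.35 in WKY alone (unadjusted p = 0.0105, adjusted p = 0.9998 in edgeR), and Tg was -0.84 in WKY alone and 4.03 in SH rats alone (unadjusted p = 0.0166, adjusted p = 0.862 in edgeR). Cfd, whose side difference was close to 0, was -0.0087 with all 24 libraries and -0.20 in WKY alone. Leaving out 1 rat at a time gave side differences from 0.36 to 1.33 for Adipoq, 1.06 to 1.40 for Fabp4, -0.026 to 0.14 for Cfd and 0.48 to 3.63 for Tg. Cfd was negative without WKY rat 36, SH rat 36 (-0.01) or SH rat 34 (-0.02).

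Strain differences under the same leaving out ran from 1.08 to 1.89 for Adipoq, 0.38 to 1.05 for Fabp4, 0.69 to 1.22 for Cfd and 1.71 to 4.65 for Tg, and the called genes from 2200 to 2831. Adipoq was 3.15 in left CBs alone and 0.45 in right CBs alone, Fabp4 1.79 with all 24 libraries, and Tg 6.11 with all 24, 0.54 in left and 5.39 in right CBs alone. Called genes, 2863 in 23 libraries, were 1485 with all 24, 1281 in left and 839 in right CBs alone, the last pair being fits with fewer libraries. The cause of the other moves was not tested. Rat numbers 33, 34, 36 and 37 occur in both strains and mark no pairing of rats: over 7 pairs of libraries the correlation of deviations ran from -0.287 to 0.0537, and a replicate block by number, chosen after seeing the data, gave 1579 called genes. Depth limits Adipoq most, with 3 or fewer counts in 9 of 24 libraries.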
